A study of Homo sapiens with 12 samples.

Results

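The mRNAs bound to polysomes were compared between a HEK293T line in which PRRC2B was knocked down and a control line, using the 6 polysome libraries of the 12 libraries in the series. HEK293T is an established human embryonic kidney cell line. The shPRRC2B line expressed, upon addition of doxycycline (Dox), a short hairpin RNA (shRNA) against PRRC2B, and the shCtrl line carried a non-silencing shRNA under the same inducible system. The methods describe the lines as stable single clones selected with puromycin, so the effect of the shRNA and a difference between 2 clones cannot be told apart in these libraries. Both lines were treated with Dox, each with 3 biological replicates, and the other 6 libraries held total RNA of the same lines. Libraries were chosen by the line and fraction given in their labels, and all 6 polysome libraries were used.

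Polysomes are mRNAs that carry several ribosomes at once, and they are separated from single ribosomes and free mRNA by sedimentation through a sucrose gradient. The amount of an mRNA in the heavy fractions depends on how much of that mRNA the cell holds and on how much of it is engaged by ribosomes, so the level in polysome RNA is not by itself a rate of translation. PRRC2B is a large RNA-binding protein of the proline-rich coiled-coil family, which also includes PRRC2A and PRRC2C. The study describes contacts of PRRC2B with the initiation factors eIF4G2 and eIF3 and with mRNAs through elements rich in C and U or in G and A.

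The polysome libraries held between 12434157 and 15794787 counts, and levels are given below as CPM, the count of a gene relative to its library total after scaling by TMM, a normalization of edgeR. Since CPM is relative, a change in the total amount of polysomes per cell cannot be read from these values, and in bulk RNA fewer cells in a given state and less RNA per cell cannot be told apart. The lines were separated on the first principal component (66.7% of the variance), and shCtrl replicate 1 stood apart from the other shCtrl libraries on the second (12.5%). The biological coefficient of variation was 0.228 in polysome RNA and 0.0746 in total RNA, so replicates of polysome RNA varied more than those of total RNA.

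PRRC2B itself (chr9:131373636-131500197, GRCh38, plus strand) was at 9.37, 13.1 and 14.9 CPM in the shCtrl polysome libraries. It was at 6.40, 4.64 and 3.67 CPM in the shPRRC2B polysome libraries. The 2 groups did not overlap, and PRRC2B fell 2.53-fold in polysome RNA (log2 -1.34 ± 0.277 (SE), edgeR adjusted p = 0.00193). In total RNA its log2 change was -1.53, so the targeted gene was lower in both kinds of RNA. With the trend in transcript length removed together with a replicate block, the polysome change was -0.75 and no longer passed (edgeR adjusted p = 0.0584).

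Of 59385 gene names, 15268 passed the filter on low counts in the polysome libraries and were tested with edgeR. A gene was called higher or lower at a Benjamini-Hochberg adjusted p under 0.05 and a log2 change, shPRRC2B over shCtrl, beyond 0.5 in either direction. By this rule 2552 genes (16.7%) were higher and 2842 genes (18.6%) were lower in shPRRC2B polysome RNA. Counts of called members in the lists below are to be read against these shares. The median size of the change was 1.05 on the log2 scale among the higher genes and 1.14 among the lower genes. The counts ranged from 1852 to 3177 higher and from 2080 to 3162 lower when each library in turn was left out, and both maxima came without shCtrl replicate 1.

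The change in polysome RNA varied with transcript length. Among protein-coding genes whose canonical transcript is under 1000 nt, the median log2 change was 0.39, with 223 of 699 genes higher and 72 lower. It declined with each longer class and was -0.63 for transcripts of 8000 nt or more, where 69 of 1155 genes were higher and 445 lower. Total RNA did not show this order: its median was -0.23 in the shortest class and 0.20 in the longest. The total RNA values of the lists below were not adjusted for length. Where a count of more than 5 genes in a list below moved by more than 1.5 times with the length trend removed, that value is given with it. Counts of 5 or fewer genes in 1 direction often moved that far under single alternatives.

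**Figure D1:**
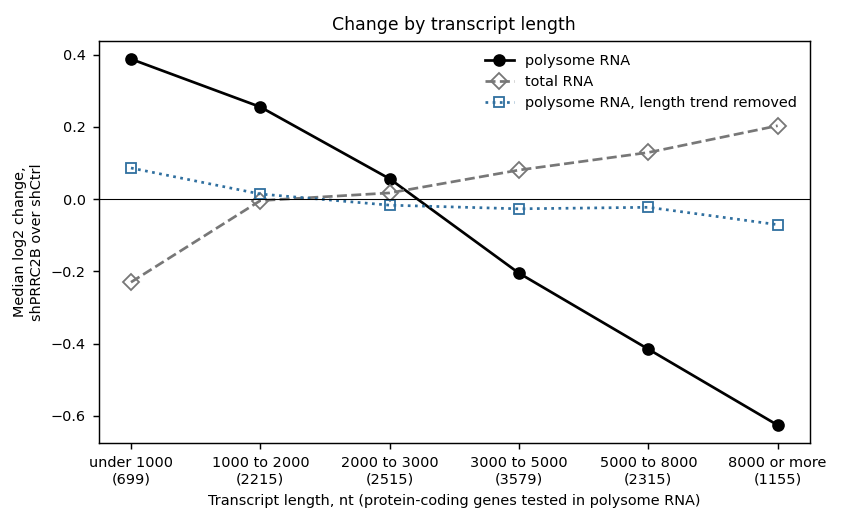
Median log2 change, shPRRC2B over shCtrl (vertical axis), of protein-coding genes in 6 classes of transcript length in nt (horizontal axis, number of genes tested in parentheses), for polysome RNA, for total RNA and for polysome RNA after the length trend was removed. The polysome medians decline from 0.39 to -0.63 with length, and the total RNA medians rise from -0.23 to 0.20.

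The largest falls in polysome RNA were found in genes that were also low in total RNA of the shPRRC2B line. BEX1, an adaptor protein gene on the X chromosome, was at 89.5, 73.7 and 51.9 CPM in shCtrl and at 0.244, 0.0682 and 0.408 CPM in shPRRC2B (log2 -8.17 ± 0.377 (SE), edgeR adjusted p = 6.99e-09). PPP1R14A, an inhibitor of myosin phosphatase, was at 139, 90.9 and 72.3 CPM in shCtrl and 0.122, 1.36 and 0.340 CPM in shPRRC2B (log2 -7.39 ± 0.466 (SE), edgeR adjusted p = 7.60e-08). For both, every shPRRC2B library held 1.36 CPM or less. Absence of overlap between the groups was a condition for choosing the 10 falls. The cardiac troponin subunit gene TNNI3 (log2 -5.03), the actin-bundling protein gene LCP1 (-4.95), the retinoic acid carrier gene CRABP2 (-3.61) and the phospholipid transfer protein gene PLTP (-3.57) followed, with log2 changes in total RNA of -4.86, -6.49, -3.45 and -4.73. The most abundant of the 10 was RPL22L1, a paralog of the ribosomal protein gene RPL22, at 1234, 1478 and 1669.8 CPM in shCtrl and 103, 88.9 and 94.9 CPM in shPRRC2B (log2 -3.93 ± 0.209 (SE), edgeR adjusted p = 2.37e-08). RPL22 itself moved the other way, from 289, 173 and 202 CPM to 405, 382 and 453 CPM (log2 0.90 ± 0.203 (SE), edgeR adjusted p = 0.0034), a gene named after its values were seen. The remaining 3 of the 10 falls were the pseudogenes RPSAP47 (log2 -6.32), RPSAP15 (-4.79) and ASNSP1 (-4.04), whose counts are uncertain because reads can be shared with RPSA and ASNS.

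The largest rises were found in genes with few or no counts in the shCtrl polysome libraries. TCIM, KLHDC9 and LINC02864 had 0 counts in all 3 shCtrl libraries and were at least 727-fold, 543-fold and 389.7-fold higher in shPRRC2B, against a floor of 3 counts over the shCtrl group. TCIM, a regulator of transcription, was at 39.6, 49.0 and 73.4 CPM in the shPRRC2B libraries. The antisense RNA ST8SIA6-AS1 was at 0.747, 0 and 0 CPM in shCtrl and 117, 108 and 136 CPM in shPRRC2B (log2 8.76 ± 0.495 (SE), edgeR adjusted p = 2.63e-08). The groups did not overlap for any of these genes, which was a condition for choosing them. The lymphotoxin beta receptor gene LTBR (log2 7.12), the lysosomal protease gene CTSZ (6.76), HSBP1L1 (6.97), the pseudogene TSSC2 (7.28) and the noncoding names RP11-190J1.3 (7.92) and RP11-400M8.1 (7.81) made up the 10. All 20 genes were also called in the same direction in total RNA. The log2 changes of the polysome and total RNA differed beyond the threshold in 6 of the 20 by the interaction of line and fraction, which passed in 27.1% of all genes tested that way.

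**Figure D2:**
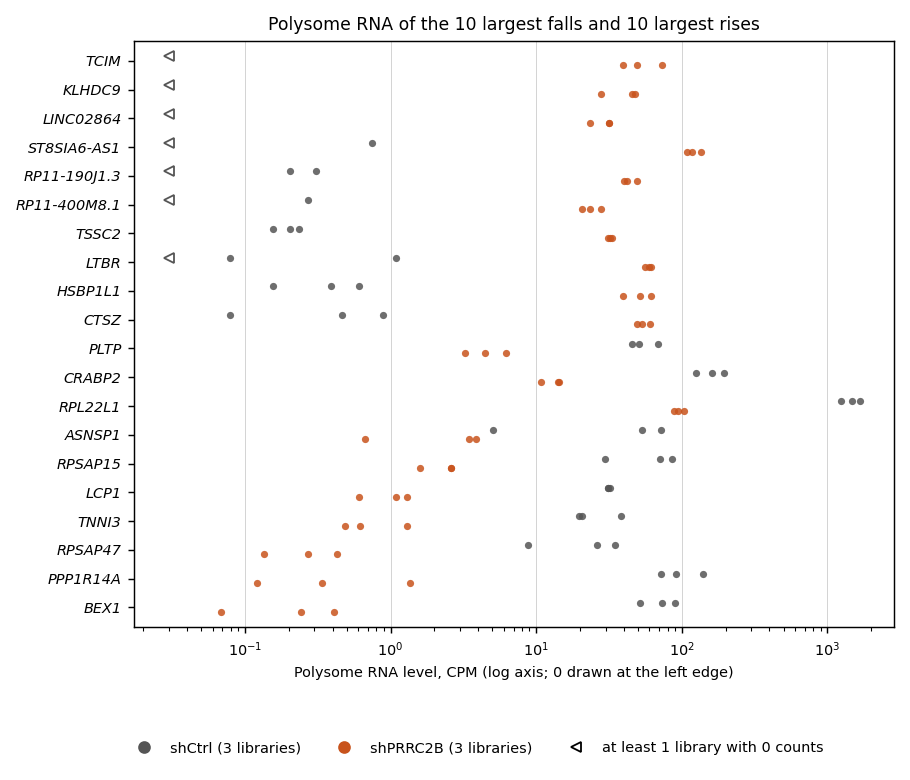
Polysome RNA level in CPM (log axis) of the 10 largest falls (bottom) and 10 largest rises (top) among called genes averaging 10 CPM or more, without overlap between groups, with 1 point per library and triangles where at least 1 library had 0 counts. The shPRRC2B libraries lie below all shCtrl libraries for BEX1 to PLTP and above them for CTSZ to TCIM.

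The study linked PRRC2B to mRNAs by crosslinking, and 205 of the 223 names on its list of bound mRNAs were tested in polysome RNA. Of these, 71 fell (34.6%, against 18.6% of all genes tested) and 21 rose (10.2%, against 16.7%). The 71 include PRRC2B itself, the target of the shRNA. The median log2 change of the list was -0.37 against -0.02 over all genes tested. In total RNA 35 of 204 were higher and 39 lower, and the median was 0.00. With the length trend removed, 74 were lower and the median was -0.34. The steepest fall was that of PRRC2C (log2 -3.03), and the steepest rise among members with a mean of at least 10 CPM was that of RPL17 (1.24).

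To show the base composition inside sites that the study lists as bound, the stretch of 30 bases richest in C and T or in A and G within the listed site is given for 5 of the bound mRNAs that fell, 5′ to 3′ on the mRNA strand, as DNA letters of the GRCh38 reference. Capitals mark the bases of the kind that dominates the stretch. The stretch was chosen by composition and not by the crosslinked base, so it need not hold the contact itself. These 5 were picked for their place in the results below, after their values were seen.
PRRC2C (coding sequence, chr1:171532493-171532522, plus strand): GAAGAGGAAGAGcGAAGAAtGGAAGAAcAA
BPTF (coding sequence, chr17:67826199-67826228, plus strand): GAGGAcGAcGAGGAGGAtGAGAtGGAAGAG
SERBP1 (coding sequence, chr1:67426218-67426247, minus strand): cAGGGtGAAGGGAAAAtAAttGAtAGAAGA
CRKL (5′ UTR, chr22:20917674-20917703, plus strand): gTTTgCCTgCCCCgaCCCCCCggCTCTgCC
NPM1 (listed under both coding sequence and 5′ UTR, chr5:171387895-171387924, plus strand): CgTTCTTTTaTCTCCgTCCgCCTTCTCTCC
The first 3 are dominated by A and G and the last 2 by C and T. Dominance by 1 kind follows from how the stretch was chosen and is no result. The median was 23 of 30 bases in sites of bound mRNAs that fell, 22 in those not called and 21.5 in those that rose. The 5′ UTR site of CCND2, described by the study as rich in C and U, was richest in A and G (26 of 30). NPM1, a nucleolar histone chaperone gene, was at 2408, 2971 and 3378 CPM in shCtrl and at 1080.2, 1560.1 and 1457 CPM in shPRRC2B, without overlap (log2 -1.10 ± 0.215 (SE), edgeR adjusted p = 0.00142).

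The family of PRRC2B and the proteins the study and its field place beside it were mostly lower in polysome RNA. Of 13 tested members, 10 fell and 0 rose, with a median log2 change of -0.86, while the median in total RNA was 0.12. The 10 include PRRC2B itself, the target of the shRNA, whose fall is no finding about its family or partners. With the length trend removed, 6 were lower, and with shPRRC2B replicate 3 left out, 6. PRRC2C was at 26.5, 35.7 and 47.1 CPM in shCtrl and 4.88, 4.77 and 3.67 CPM in shPRRC2B, a fall of 8.19-fold (log2 -3.03 ± 0.252 (SE), edgeR adjusted p = 1.45e-06). All shPRRC2B values lay below the lowest shCtrl value, and its change in total RNA was -0.18, which was not called. PRRC2A was at 12.2, 7.13 and 12.9 CPM and 4.15, 3.48 and 1.84 CPM (log2 -1.77 ± 0.333 (SE), edgeR adjusted p = 0.00108), with a total RNA change of 0.00. Both paralogs thus had lower polysome levels without a called change in total RNA. Among the RNA granule proteins, ATXN2 (log2 -1.26), ATXN2L (-1.11) and CAPRIN1 (-1.11) fell and kept their calls with any library left out. The calls of G3BP1 (-0.69), G3BP2 (-0.86), FXR1 (-0.68) and UBAP2L (-0.56) were lost with the length trend removed and without single libraries, among them shPRRC2B replicate 3. EIF4G2, the initiation factor described as a partner of PRRC2B, was at 431, 446 and 339.6 CPM in shCtrl and 683, 486 and 371 CPM in shPRRC2B, with overlap and no call (edgeR adjusted p = 0.246). FMR1 (log2 -0.06) and FXR2 (0.28) were not called either.

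Genes that the study followed singly were mostly lower. Of the 16, 10 fell and 0 rose, a count that is not independent, since the study chose some of them on these libraries. Not every member is given singly below. PRRC2B, the target of the shRNA, is also a gene of the study, and its own fall is no finding about the others. The count also pools genes that the study classed differently by translation efficiency, the ratio of polysome to total RNA. CCND2, CRKL, YWHAZ, CTC1, ATAD5, SERBP1, BPTF and PPP2R1A were bound and lower in that ratio. PTBP1 and HSPA4 were unbound and lower, and RPL37A was unbound and higher. ACTB (bound) and GAPDH and GATA4 (unbound) were classed as unchanged. CCND2, the gene of cyclin D2, was at 8.35, 12.3 and 13.4 CPM in shCtrl and at 4.21, 4.16 and 1.56 CPM in shPRRC2B (log2 -1.77 ± 0.344 (SE), edgeR adjusted p = 0.00131). CRKL, an adaptor of tyrosine kinase signalling, was at 23.1, 28.2 and 31.0 CPM and 8.66, 10.1 and 7.07 CPM (log2 -1.67 ± 0.217 (SE), edgeR adjusted p = 7.63e-05). The mRNA of SERBP1, a ribosome-associated RNA-binding protein, was at 433, 581 and 622 CPM and 179, 229 and 181 CPM (log2 -1.47 ± 0.196 (SE), edgeR adjusted p = 9.30e-05). None of these 3 overlapped between groups. The same held for 1370 genes called lower with a mean of at least 10 CPM, so it does not set them apart. Of the 3, SERBP1 was also lower in total RNA (log2 -0.60), while the total RNA changes of CCND2 (0.16) and CRKL (-0.06) were not called. BPTF, a nucleosome-remodelling subunit (log2 -1.33), PPP2R1A, the scaffold of the phosphatase PP2A (-1.27), and ACTB, beta-actin (-0.98), fell with every library-leaving fit. The fall of ATAD5 (-1.23), which unloads the replication clamp, did not pass with the length trend removed (-0.79). The falls of the chaperone gene HSPA4 (-0.54) and the splicing regulator gene PTBP1 (-0.50) lay close to the threshold and did not pass without shCtrl replicate 3, shPRRC2B replicate 2 or shPRRC2B replicate 3, and PTBP1 also without shCtrl replicate 2. Both were also lost with the length trend removed. The polysome level of CTC1 was 7.94, 5.11 and 1.80 CPM and 3.47, 2.73 and 4.96 CPM and overlapped. YWHAZ (log2 -0.55), GAPDH (-0.40), GATA4 (0.50) and RPL37A (0.07) were not called.

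**Figure D3:**
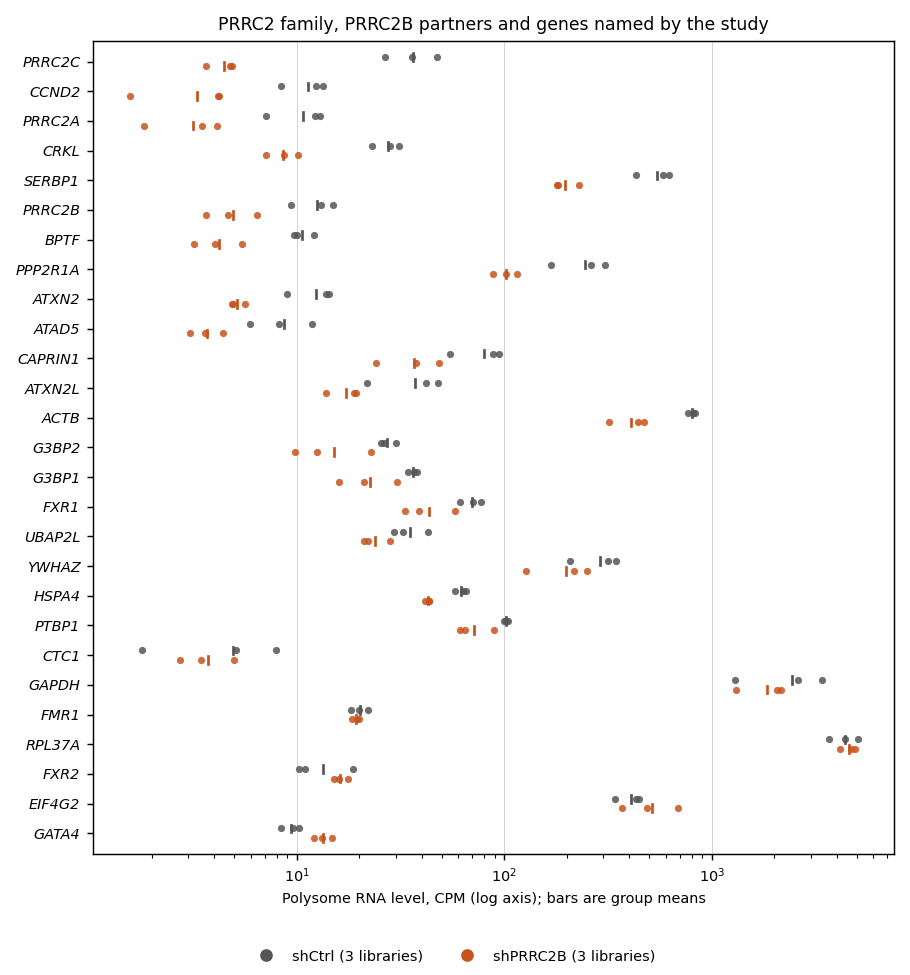
Polysome RNA level in CPM (log axis) of the PRRC2 family, the partners and the genes named by the study, ordered by log2 change from the steepest fall (top), with 1 point per library and a bar at each group mean. For PRRC2C the shPRRC2B libraries are at 3.67 to 4.88 CPM and the shCtrl libraries at 26.5 to 47.1 CPM, and from CTC1 to EIF4G2 the groups overlap, while GATA4 at the bottom does not overlap and was not called.

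Among the other factors of initiation, falls outnumbered rises. Of the 14 subunits of eIF3, the scaffold that holds mRNA and the small ribosomal subunit together, 5 fell and 0 rose (median log2 -0.48, in total RNA 0.14). The largest subunit gene, EIF3A, was at 33.8, 25.7 and 35.5 CPM in shCtrl and 13.4, 15.3 and 12.2 CPM in shPRRC2B (log2 -1.22 ± 0.202 (SE), edgeR adjusted p = 0.000459). EIF3I fell as well (log2 -0.88), whereas EIF3B (-0.54), EIF3E (-0.55) and EIF3M (-0.61) were near the threshold. The eIF3 count was 2 or 3 when any library other than shCtrl replicate 1 was left out, and 3 with RLE size factors. Of 26 other initiation factor genes, 8 fell and 3 rose. The poly(A)-binding protein gene PABPC1 was at 159, 228 and 411 CPM and 97.5, 91.0 and 65.5 CPM (log2 -1.65 ± 0.282 (SE), edgeR adjusted p = 0.000564), and EIF2S3, a subunit of the factor that delivers the initiator tRNA, fell by a log2 change of -1.22. EIF4B (-1.18) and EIF5B (-1.22) also fell. EIF4E2, a relative of the cap-binding protein, rose from 177, 111 and 110.1 CPM to 236, 212 and 270.0 CPM (log2 0.85 ± 0.205 (SE), edgeR adjusted p = 0.00518). EIF1, the most abundant of these mRNAs, overlapped between groups (log2 -0.34, not called). Of 12 elongation and release factor genes, 3 fell (25%, against 18.6% of all genes tested) and 0 rose. EEF1A1, the elongation factor that brings tRNA to the ribosome, was not called (-0.12). ABCE1, the ribosome-recycling factor of this list, sat at the threshold (log2 -0.68, edgeR adjusted p = 0.0498).

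Aminoacyl-tRNA synthetases, which charge tRNAs with amino acids, had more falls than rises in polysome RNA. Of 19 tested cytosolic genes, 10 fell, 1 rose and 8 were not called, with a median log2 change of -0.58, and the median in total RNA was 0.30. The count of falls was 6 without shCtrl replicate 3, 6 without shPRRC2B replicate 1 and 5 without shPRRC2B replicate 3. YARS1 was at 117, 209.9 and 200.1 CPM in shCtrl and 46.3, 63.8 and 68.6 CPM in shPRRC2B (log2 -1.56 ± 0.229 (SE), edgeR adjusted p = 0.000196). EPRS1 fell by a log2 change of -1.41, GARS1 of -1.10 and SARS1 of -1.10. The rise was that of FARSA (0.60), which did not pass with the length trend removed or without shCtrl replicate 2, and KARS1, the most abundant, was not called (0.39).

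The cytosolic ribosomal protein mRNAs, which carry a pyrimidine tract at their start and are known to be translated as a class, had the highest summed level of all lists. Their summed level was 274671, 269620.0 and 326695 CPM in shCtrl and 213667, 253709 and 265516 CPM in shPRRC2B, so the highest shPRRC2B library lay below the lowest shCtrl library. Of 77 tested genes 16 fell, 5 rose and 56 were not called, with a median log2 change of -0.14 in polysome RNA. In total RNA 49 of the 77 were lower, 0 were higher and the median was -0.65. As these mRNAs are short, the length trend matters for the count: with it removed, 30 were lower and the median was -0.37. The count of falls was 10 without shPRRC2B replicate 1. RPL15 showed the steepest fall, from 4567, 5488 and 6743 CPM to 1929.8, 2498 and 2408 CPM (log2 -1.30 ± 0.219 (SE), edgeR adjusted p = 0.000513), followed by RPL13A (log2 -1.28) and RPL24 (-1.27), and all 3 were also lower in total RNA. RPL17 showed the largest rise, from 75.6, 94.3 and 75.5 CPM to 200.0, 171 and 211 CPM (log2 1.24 ± 0.174 (SE), edgeR adjusted p = 0.000135). Of the 10 most abundant mRNAs in polysome RNA, 8 encode ribosomal proteins, and none of the 10 was called, among them RPS2 (log2 -0.34), RPL13 (0.21), RPL8 (-0.26), RPS15 (0.23), RPS4X (-0.28), RPS3 (-0.45) and RPL27A (-0.01), with EEF1A1 and MT-CO1. Many of these genes have processed pseudogenes, with which reads can be shared, so their single values carry that uncertainty.

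Among genes of mitochondrial proteins made in the cytosol, those of the mitochondrial ribosome were higher more often than all genes tested (36% against 16.7%), while those of the respiratory chain (22.1%) and of import (19.2%) were nearer to that share. Of 75 mitochondrial ribosomal protein genes 27 rose and 6 fell (median log2 0.30), and their summed level was 11266, 10859 and 9308 CPM in shCtrl and 14455, 13453 and 14413 CPM in shPRRC2B, without overlap. The number that rose was 14, beside 10 that fell, with the length trend removed and 14 without shCtrl replicate 3. MRPL20, of the large mitochondrial subunit, was at 244, 176 and 186 CPM in shCtrl and 590.2, 607 and 641 CPM in shPRRC2B (log2 1.60 ± 0.186 (SE), edgeR adjusted p = 3.06e-05). MRPL34 (log2 1.13), MRPL43 (1.07) and the most abundant member, MRPL57 (0.81), also rose, whereas MRPL30 (-1.20) and MRPL37 (-0.82) fell. Of 77 nuclear genes for subunits of the respiratory chain and ATP synthase, 17 rose and 4 fell, with a median log2 change of 0.24 in polysome RNA and -0.25 in total RNA, where 1 was higher and 15 lower. The number that rose lay between 9 and 27 when single libraries were left out, the highest without shCtrl replicate 1 and the lowest without shCtrl replicate 3, and removal of the length trend left 10 higher and 7 lower. SDHB, the iron-sulfur subunit of complex II, was at 127, 231 and 173 CPM and 458, 465 and 323 CPM (log2 1.23 ± 0.227 (SE), edgeR adjusted p = 0.000921). NDUFB10 of complex I (1.06) and UQCR11 of complex III (1.12) rose, while UQCRC1, a core subunit of complex III, fell (-1.09) and COX7C was not called (-0.03). Of 26 import genes 5 rose and 2 fell, with 2 rises without shCtrl replicate 3 and likewise without shPRRC2B replicate 1. The small carrier TIMM13 went from 636, 427 and 404 CPM to 932, 934 and 1029.7 CPM (log2 0.98 ± 0.205 (SE), edgeR adjusted p = 0.00209), and the outer membrane receptor TOMM70 went from 38.6, 49.6 and 56.1 CPM to 14.4, 14.6 and 11.3 CPM (log2 -1.84 ± 0.204 (SE), edgeR adjusted p = 2.23e-05). The 13 mRNAs of the mitochondrial genome, which are translated inside the organelle, gave 0 calls by edgeR (1 had an unadjusted p under 0.05) and 0 by DESeq2, with sums of 45269, 17839 and 26937 CPM and 50514, 26302 and 26519 CPM that overlapped. Under some alternatives calls appeared: 4 were higher without shCtrl replicate 1, 2 were lower without shCtrl replicate 2 and likewise without shPRRC2B replicate 1, 1 was higher and 2 were lower with the replicate block, 3 were lower with that block and the length trend removed, and 1 was higher and 3 were lower with no filter.

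Large chromatin regulators, which remodel nucleosomes or write and read histone marks, had many falls and no rises. Of 55 tested genes 32 fell and 0 rose, with a median log2 change of -1.04 in polysome RNA and 0.25 in total RNA, where 12 were higher and 2 lower. Their summed polysome level was 692, 656 and 744 CPM in shCtrl and 428, 402 and 369.8 CPM in shPRRC2B, without overlap. Their median transcript length was 9001 nt, and with the length trend removed 17 were lower, 2 were higher and the median was -0.50. All protein-coding genes of 8000 nt or more had a median of -0.63 in polysome RNA and 0.20 in total RNA, where 24.8% were higher. The total RNA median of this list was thus near that of its length class. SMARCC1, a core subunit of the SWI/SNF remodeller, showed the steepest fall, from 22.3, 23.4 and 32.8 CPM to 5.91, 5.59 and 2.79 CPM (log2 -2.45 ± 0.282 (SE), edgeR adjusted p = 2.76e-05). The histone methyltransferase genes ASH1L (log2 -2.01), KMT2C (-1.73) and KMT2A (-1.41) fell, as did PBRM1 (-1.67) of the SWI/SNF family and the acetyltransferase gene EP300 (-1.39). In total RNA EP300 was higher (0.75) and the other 4 were not called. BRWD1, the most abundant member, was not called (log2 0.01, edgeR adjusted p = 0.962).

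Cohesin and condensin, the ring complexes that hold and fold chromosomes, had falls only: of 23 genes 10 fell, 0 rose and 13 were not called (median log2 -0.47, in total RNA 0.23). With the length trend removed 8 were lower, 2 were higher and the median was -0.20. STAG2 was at 41.3, 41.5 and 49.2 CPM in shCtrl and 13.9, 13.6 and 11.4 CPM in shPRRC2B (log2 -1.76 ± 0.189 (SE), edgeR adjusted p = 1.58e-05), with SMC1A (log2 -1.41), RAD21 (-1.15) and SMC5 (-2.12) also lower, and NCAPH2 was not called (0.28). Of 35 mitotic genes 11 fell and 0 rose (median -0.22). MKI67, the gene of the proliferation antigen Ki-67, was at 20.4, 18.7 and 24.3 CPM in shCtrl and between 4.76 and 5.18 CPM in shPRRC2B polysome RNA (log2 -2.08 ± 0.218 (SE), edgeR adjusted p = 1.34e-05). In total RNA MKI67 was higher (log2 0.73), so the 2 kinds of RNA were called in opposite directions. TOP2A (-1.48) and CENPF (-1.73) fell, and the survivin gene BIRC5 was not called (-0.01). The fall of CDK1 (-0.59) was lost without shCtrl replicate 2 or 3 or shPRRC2B replicate 2 or 3.

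Genes of the G1 phase went both ways. Of 22 tested, 5 fell (22.7%) and 4 rose (18.2%), near the 18.6% and 16.7% of all genes tested. With the length trend removed 3 were lower and 2 higher. Beside CCND2, the retinoblastoma gene RB1 (log2 -1.86) and CDK6 (-1.14) fell, the latter not with the length trend removed (-0.54). CDKN1A, the p21 inhibitor of cyclin-dependent kinases, rose from 59.4, 77.7 and 60.4 CPM to 161, 124 and 103 CPM (log2 0.97 ± 0.196 (SE), edgeR adjusted p = 0.00164) and was also higher in total RNA (1.08). CDKN2A was not called in polysome RNA (0.08). Of 25 licensing and replicative helicase genes 5 fell (20%, near the 18.6% of all genes tested), among them ORC1 (-1.09). GINS2 rose from 218, 302 and 249 CPM to 450.4, 509 and 476 CPM (log2 0.90 ± 0.181 (SE), edgeR adjusted p = 0.00163). This count of falls lay between 1 (without shPRRC2B replicate 2, and likewise replicate 3) and 8 (without shCtrl replicate 1). CDT1 was not called (-0.57).

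The clustered histone genes had the lowest median among the lists with more than 10 tested genes, with a wide spread among control libraries. Replication-dependent histone mRNAs end in a stem-loop and mostly lack a poly(A) tail, and the libraries were made after poly(A) enrichment. Of 38 tested genes 29 fell and 1 rose (median log2 -1.96). Their summed level was 472, 1411 and 1174 CPM in shCtrl and 469, 398 and 285 CPM in shPRRC2B, so shCtrl replicate 1 lay beside the highest shPRRC2B library and the groups nearly touched. Without shCtrl replicate 2 there were 21 falls and a median of -1.57, and without shCtrl replicate 1 there were 31 falls and a median of -2.38. H2BC12, the most abundant, was at 160.2, 269.6 and 240.0 CPM and 156, 111 and 113 CPM (log2 -0.82 ± 0.213 (SE), edgeR adjusted p = 0.0082), a call lost without shPRRC2B replicate 2. H4C5 (log2 -2.80) and H2BC18 (-2.60) overlapped between groups in spite of a call. Only 17 of these genes could be tested in total RNA, of which 7 were lower and 2 higher. Members of the clusters are near-identical in their coding regions, so counts of single genes are uncertain.

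**Figure D4:**
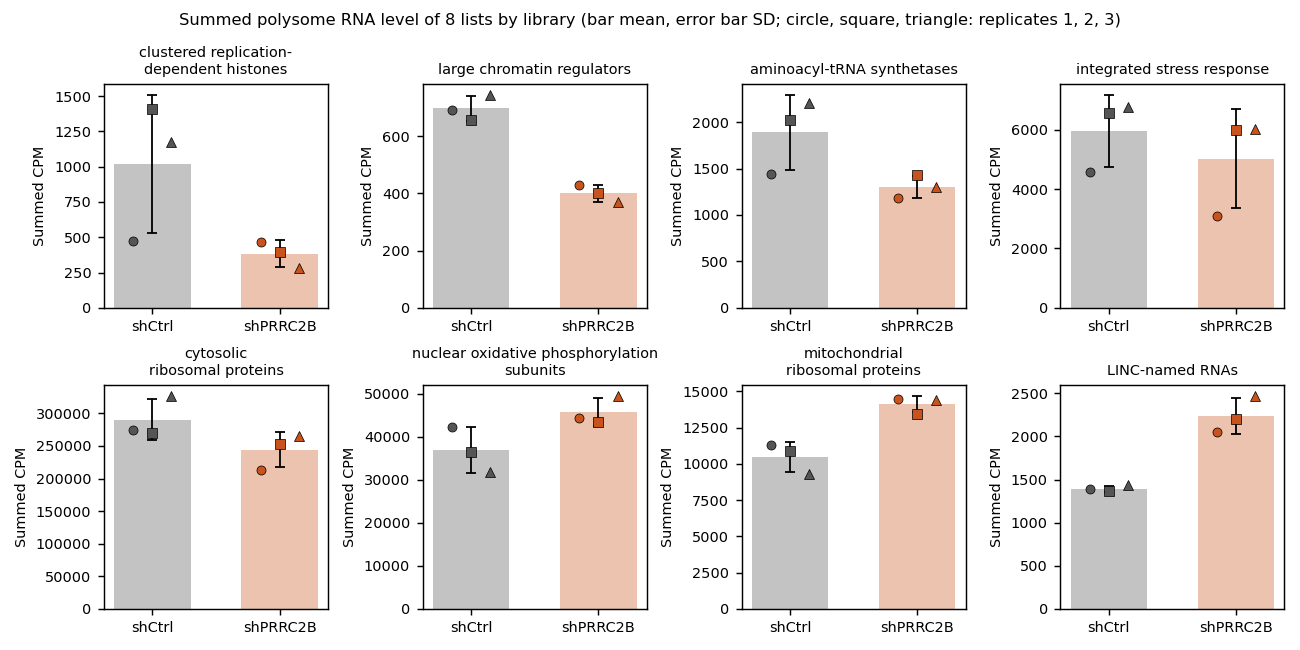
Summed polysome RNA level in CPM (vertical axes, from 0) of 8 lists in the 3 shCtrl and 3 shPRRC2B libraries, with bars at the mean, error bars of 1 SD and 1 symbol per replicate. The chromatin regulators, mitochondrial ribosomal proteins and LINC-named RNAs separate the lines without overlap, while for the histones shCtrl replicate 1 lies with the shPRRC2B libraries.

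Factors that process and degrade mRNA were lower more often than higher. Of 61 genes for mRNA decay, deadenylation and miRNA action 24 fell and 2 rose (median log2 -0.43, in total RNA 0.16). CNOT1, the scaffold of the CCR4-NOT deadenylase (log2 -1.28), and the decapping activators DCP1A (-1.98) and DDX6 (-1.61) fell, and LSM1 rose (0.92). CNOT7 met the adjusted p but not the minimum change (0.48). Of 39 SR protein and hnRNP genes 9 fell (23.1%, near the 18.6% of all genes tested) and 1 rose. HNRNPK was at 175, 223 and 213 CPM and 99.7, 91.9 and 65.4 CPM (log2 -1.25 ± 0.192 (SE), edgeR adjusted p = 0.000272) while HNRNPU also fell. SRSF8 was the gene that rose (0.74), and HNRNPA1 was not called (-0.51). Of 50 core spliceosome genes 12 fell (24%, near the 18.6% of all genes tested) and 3 rose (6%, against 16.7%). In this list 1 was higher with the length trend removed, and 6 fell without shPRRC2B replicate 3. Its summed level overlapped between the lines, with means of 10697 CPM in shCtrl and 11742 CPM in shPRRC2B. SNRPA of the U1 particle fell (-1.51), while the Sm-like gene LSM4 rose from 807, 634 and 542 CPM to 1285, 1580.2 and 1470.5 CPM (log2 1.13 ± 0.202 (SE), edgeR adjusted p = 0.000776), and SNRPD2 was not called (-0.24).

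Genes of the machinery that brings nascent proteins into the endoplasmic reticulum had more falls than rises. Of 33 genes 13 fell, 3 rose and 17 were not called (median log2 -0.34, in total RNA 0.23), and 8 fell without shPRRC2B replicate 2, while 1 rose with the length trend removed. STT3B, a catalytic subunit of the oligosaccharyltransferase, was at 68.9, 70.8 and 76.4 CPM and 19.5, 14.2 and 13.9 CPM (log2 -2.18 ± 0.191 (SE), edgeR adjusted p = 2.33e-06), and RPN2 of the same complex fell too (-1.03). SRP19 of the signal recognition particle rose (0.79), and SRP9 was not called (-0.02). Among 15 HSP70, HSP90 and HSP110 chaperone genes 5 fell and 1 rose, against 8 higher and 0 lower in total RNA, and 3 fell without shPRRC2B replicate 3. HSP90B1, the chaperone of the endoplasmic reticulum, was at 106, 93.9 and 100.3 CPM and 41.1, 34.3 and 46.4 CPM (log2 -1.30 ± 0.173 (SE), edgeR adjusted p = 9.36e-05), and HSPA8 was not called (0.20). Of the 8 subunits of the CCT chaperonin TCP1 rose (0.82) and 2 fell, including CCT8 (-0.75), whose call was lost without shCtrl replicate 2 or 3 or shPRRC2B replicate 1. CCT3 was not called (-0.56). Proteasome genes went both ways, with 6 of 41 higher (14.6%, near the 16.7% of all genes tested), among them PSMA6 (1.08) and PSMA7 (0.75). Another 3 were lower (7.32%, against 18.6%), among them PSMD6 (-1.10). The number lower was 6 with the length trend removed and 1 without shCtrl replicate 2, shPRRC2B replicate 2 or shPRRC2B replicate 3. The call of PSMA7 was lost with the length trend removed. Of 47 ubiquitin-specific protease genes 15 fell and 2 rose, with USP33 (-1.66), USP9X (-1.34) and USP1 (-1.40) lower, and USP39 not called (0.24).

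Genes of membrane traffic and the cytoskeleton were mixed. Of 54 RAB GTPase genes 11 rose and 11 fell (20.4% each, near the 16.7% higher and 18.6% lower of all genes tested). RAB26 went from 8.76, 5.97 and 7.22 CPM to 16.0, 25.2 and 28.4 CPM (log2 1.66 ± 0.252 (SE), edgeR adjusted p = 0.000244). RAB32 rose by a log2 change of 1.51 and RAB14 fell (-1.19), while RAB4A was not called (0.36). Of 33 VPS genes 6 fell (18.2%, against 18.6% of all genes tested) and 0 rose. Only 3 fell without shCtrl replicate 2, without shPRRC2B replicate 2 or without shPRRC2B replicate 3, and 5 fell and 3 rose with the length trend removed. VPS41 was at the threshold (log2 -0.68, edgeR adjusted p = 0.0482) while VPS25 was not called (0.42). Of 50 kinesin and dynein genes 13 fell (26%) and 8 rose (16%), against 18.6% and 16.7% of all genes tested. The dynein light chain gene DYNLT1 rose from 249.9, 203 and 209 CPM to 442, 453 and 548 CPM (log2 1.12 ± 0.179 (SE), edgeR adjusted p = 0.00035), the light intermediate chain gene DYNC1LI1 fell (-1.10), and DYNLL1, the most abundant, was not called (0.69). With the length trend removed 7 were lower, and without shCtrl replicate 2 only 2 were higher. The number higher was 4 without shCtrl replicate 3, shPRRC2B replicate 2 or shPRRC2B replicate 3 and 5 without shPRRC2B replicate 1, and 8 were lower without shPRRC2B replicate 2. Of 17 actin and tubulin genes 4 rose (23.5%) and 3 fell (17.6%), against 16.7% and 18.6% of all genes tested. The beta-tubulin gene TUBB6 rose (1.05) and ACTB fell, while ACTG1 was not called (-0.67).

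Of 216 solute carriers 57 fell (26.4%, against 18.6% of all genes tested) and 37 rose (17.1%, against 16.7%). The mitochondrial pyrimidine carrier gene SLC25A33 was at 47.4, 43.2 and 38.9 CPM in shCtrl and 196, 186 and 209 CPM in shPRRC2B (log2 2.19 ± 0.170 (SE), edgeR adjusted p = 6.73e-07). SLC25A5, an ADP/ATP carrier, went the other way, from 1209, 2054 and 2517 CPM to 500.0, 889 and 822 CPM (log2 -1.39 ± 0.275 (SE), edgeR adjusted p = 0.00153), and the cationic amino acid transporter gene SLC7A1 fell by a log2 change of -1.88. Each of these was called in the same direction in total RNA (1.25, -0.63 and -0.70).

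Genes of the integrated stress response, the pathway by which ATF4 induces amino acid synthesis and transport, were more often lower than higher in both kinds of RNA. Of 30 genes 11 fell and 0 rose in polysome RNA (median log2 -0.54), and 13 were lower and 1 higher in total RNA. The polysome count was 17 without shCtrl replicate 1 and 7 without shCtrl replicate 2, shCtrl replicate 3 or shPRRC2B replicate 1. PSAT1 of serine synthesis was at 68.9, 248 and 233 CPM in shCtrl and 32.9, 56.1 and 48.1 CPM in shPRRC2B (log2 -2.00 ± 0.357 (SE), edgeR adjusted p = 0.000752), and PHGDH, the first enzyme of that pathway, was at 189.7, 444 and 546 CPM and 72.2, 135 and 138 CPM (log2 -1.77 ± 0.326 (SE), edgeR adjusted p = 0.000909). For both, the lowest shCtrl value was that of replicate 1. The transporter gene SLC7A5 (log2 -1.65) and DDIT4 (-1.53) fell. ATF4 itself was at 2398, 1848 and 1794 CPM and 1266, 2537 and 2756 CPM in polysome RNA and was not called (0.12), while its total RNA was lower (-0.68).

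Of 27 cholesterol synthesis genes 6 fell (22.2%, near the 18.6% of all genes tested) and 2 rose (7.41%, against 16.7%). The regulator gene SREBF2 fell (log2 -1.16), while IDI1 rose (0.87) and TM7SF2 was not called (0.40). Of 18 glycolytic genes 3 fell (16.7%, near the 18.6% of all genes tested), among them ENO2 (-0.85). Another 2 rose, among them PGAM1 (0.72), whose call was lost without shPRRC2B replicate 2.

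HOX genes were more often higher, with 9 of 36 higher (25%, against 16.7% of all genes tested) and 1 lower (median log2 0.21). HOXD11 was at 15.1, 15.2 and 12.1 CPM in shCtrl and 40.2, 29.0 and 23.9 CPM in shPRRC2B (log2 1.13 ± 0.222 (SE), edgeR adjusted p = 0.00141), and its total RNA change was -0.03. HOXD13 rose too (0.89), a call lost without shCtrl replicate 2 or 3 or shPRRC2B replicate 1. Zinc finger genes named ZNF were more often lower, with 134 of 423 lower and 38 higher (median -0.35), and in total RNA 162 of 422 were lower (median -0.31). With the length trend removed together with a replicate block, 88 were lower. ZNF226 (log2 -1.44) and ZNF239 (1.51) were the ends of the range among members with a mean of at least 10 CPM, and ZNF706 was not called (0.31).

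Among long noncoding RNAs, calls of higher outnumbered calls of lower in polysome RNA, and calls of lower outnumbered calls of higher in total RNA. Of 1017 tested genes annotated as lncRNA 274 were higher, 58 lower and the rest not called in polysome RNA (median log2 0.45), whereas in total RNA 90 of 868 were higher and 357 lower (median -0.45). By comparison, 1915 of 12478 protein-coding genes were higher and 2656 lower in polysome RNA. Length differs between these classes: the median transcript of the LINC-named RNAs was 1517 nt. Among protein-coding genes of 1000 to 2000 nt, 596 of 2215 were higher (26.9%, the same share as the lncRNAs). Another 238 were lower (10.7%, against 5.7% of the lncRNAs). The share of lncRNAs called higher therefore does not set them apart from coding genes of that length. The summed polysome level of the lncRNAs was 9673, 9712 and 10937 CPM in shCtrl and 12358, 13229 and 14889 CPM in shPRRC2B, without overlap. Among LINC-named RNAs 79 of 254 rose and 14 fell, and 40 rose when at least 10 counts in every library were required. LINC01605 was at 96.5, 96.5 and 117 CPM in shCtrl and 191, 253 and 268 CPM in shPRRC2B (log2 1.20 ± 0.183 (SE), edgeR adjusted p = 0.000259), with a total RNA change of -0.06. Among antisense-named RNAs 107 of 427 rose and 26 fell (17 without shPRRC2B replicate 1), with a median of 0.43 in polysome RNA and -0.45 in total RNA. THUMPD3-AS1 fell (-1.17), and the most abundant, ATP2A1-AS1, was not called (0.59). The counting was not stated to use strand, so antisense RNAs and the genes they overlap cannot be told apart.

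Of 22 snoRNA host genes 9 rose and 1 fell. DANCR was at 244, 128 and 135 CPM and 571, 516 and 603 CPM (log2 1.74 ± 0.236 (SE), edgeR adjusted p = 0.000108), and SNHG3 rose by a log2 change of 1.01. GAS5, whose transcript is known to load onto ribosomes and to be degraded during translation, was the member that fell, from 502, 846 and 1123 CPM to 237, 376 and 421 CPM (log2 -1.26 ± 0.275 (SE), edgeR adjusted p = 0.00284). Among 4 tested nuclear-retained RNAs, MALAT1 and TUG1 were called lower. MALAT1 was at 10.9, 116 and 261 CPM in shCtrl and at 3.11, 12.1 and 5.24 CPM in shPRRC2B, so the shCtrl libraries spread widely and overlapped the shPRRC2B range. TUG1 was at 20.5, 33.8 and 39.5 CPM and 6.77, 4.43 and 2.52 CPM, without overlap (log2 -2.76 ± 0.327 (SE), edgeR adjusted p = 3.55e-05).

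**Figure D5:**
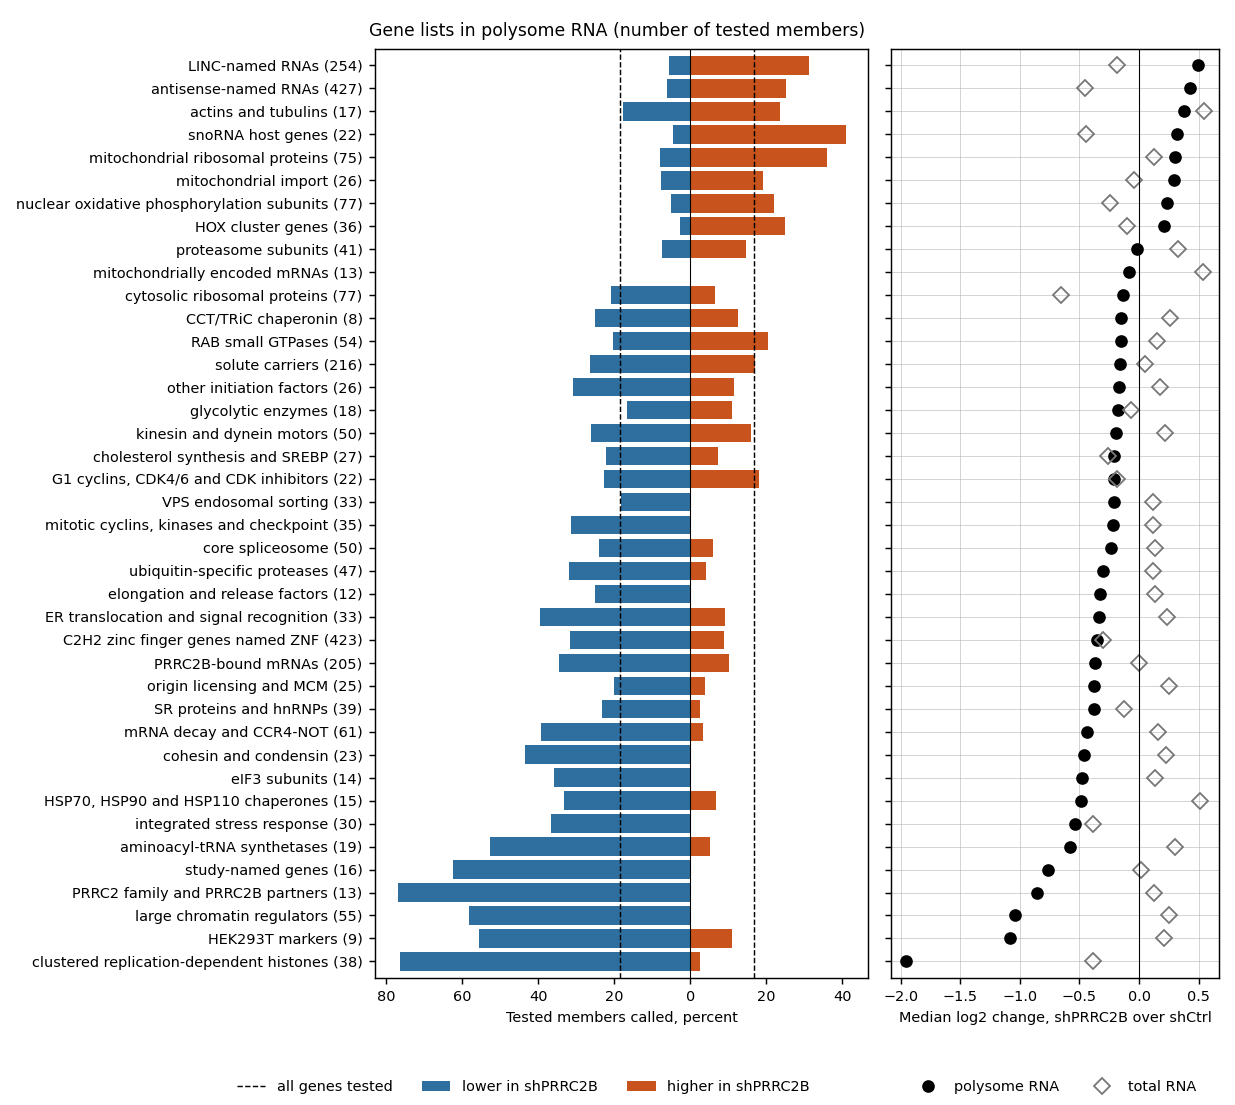
Percent of tested members of each list that were called lower (left bars) or higher (right bars) in shPRRC2B polysome RNA, with dashed lines at the 18.6% lower and 16.7% higher of all genes tested, and beside it the median log2 change in polysome and in total RNA. The histones, chromatin regulators and PRRC2 family lie at the lower end, and LINC-named and antisense-named RNAs at the upper end with total RNA medians below 0.

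The changes in polysome RNA were set beside those in total RNA of the same lines, in which 16.4% of 17520 genes tested were higher and 20.5% lower. Of the 2552 genes higher in polysome RNA, 2375 were tested in total RNA, and 914 of these (38.5%) were higher there too, 127 were lower and 1334 were not called. The 914 were 37.2% of the genes higher in total RNA and tested in both. Of the 2842 genes lower in polysome RNA, 2802 were tested in total RNA, with 1046 (37.3%) lower, 160 higher and 1596 not called. Over all 14531 genes tested in both, 16.9% were higher and 19.9% lower in total RNA. These are side-by-side calls, and the test of the difference, the interaction over 18166 genes, is described for the 20 genes with the largest polysome changes.

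The identity of the cells was checked with marker genes. Of 10 HEK293T markers 9 were tested: the intermediate filament gene VIM was present in all libraries, at 196, 217 and 284 CPM in shCtrl and 164, 326 and 329 CPM in shPRRC2B, and was not called. NEFM (log2 -2.81), KRT8 (-1.16) and HMGA2 (-1.40) were among 5 markers that fell, so the polysome RNA of the lines differed in markers of the line itself, with sums of 563, 639 and 709.8 CPM in shCtrl and 351, 543 and 521 CPM in shPRRC2B. PAX2 rose (0.92), a call lost in 9 of the 15 alternatives. Of 7 blood markers 1 passed the filter on low counts, and of 5 liver and 7 fibroblast markers 2 and 3 passed, with sums of at most 3.54 and 7.87 CPM in any library. APOA1 (0.50) and COL1A1 (-0.02), the most abundant of these, were not called, while 2 fibroblast markers were called lower.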

How the data were processed

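Total and polysome-associated RNA of the shCtrl and shPRRC2B lines was poly(A)-enriched and sequenced in pairs by the authors. The authors deposited counts without normalization, with whole read pairs for 59385 gene names, and 0 columns belonged to no library. By the submitters' processing notes, Trimmomatic 0.36 served for trimming, HISAT2 2.1.0 (the methods give another version) for alignment to GRCh38, and featureCounts of Subread 2.0.1 for counting on GENCODE 38. No strand setting is given in the sources used here.

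The counts of the 6 polysome libraries (12434157 to 15794787 per library) were fitted in R 4.3.3 with edgeR 4.0.16 (filterByExpr with a minimum count of 10, TMM, glmQLFit and glmQLFTest, no block). Each p-value was adjusted by the Benjamini-Hochberg method over all 15268 genes tested. SEs are the log2 change divided by the root of the F statistic. Errors after ± are SEs of the model, and they and the p-values measure the spread between these libraries. Total RNA (9855734 to 20837542 counts) was fitted the same way, and the difference of the 2 changes as an interaction over 12 libraries. The interaction fit took the 12 libraries as independent, with no term for cultures that total and polysome RNA may share. It also used 1 spread per gene for both kinds of RNA, although their coefficients of variation differed (0.228 and 0.0746). The p-values and the share of genes passing that test carry both limits. The polysome fit was also run on simulated counts with a far smaller share of changed genes than was called here. These counts had no length trend and no outlying library, so that run does not show how the fit behaves under such conditions. DESeq2 1.42.0 served as an alternative, beside other normalizations, filters, fits and left-out libraries.

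Transcript lengths came from canonical transcripts of GENCODE 44, found for 91.8% of the genes tested. The length trend was removed with a lowess curve (span 0.3) of each library's deviation against length, used as an offset. Stretches of 30 bases were read from GRCh38 at sites the study lists.

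Named genes were the 10 largest called rises and falls with a mean of at least 10 CPM and no overlap, the genes of the study and the PRRC2 family, the largest called rise and fall and the most abundant member of each list, and the 10 most abundant genes. A further 61 genes were picked after their values were seen. The members and the gene lists were chosen with earlier results of these data known. Lists are described by counts and medians and were not tested. The list of bound mRNAs holds the 223 names of a supplementary table of the study. No library was a duplicate of another. The results of some members of these lists are not reported here.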

Additional observations from a re-analysis of the deposited data

Results flagged for a closer look

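For 6 of the 20 genes with the largest changes in polysome RNA, the log2 change differed between polysome and total RNA by the interaction of line and fraction (edgeR over 12 libraries taken as independent, adjusted over all 18166 genes tested). This test passed in 27.1% of all genes, so 6 of 20 is near the share over all genes. BEX1 fell further in polysome RNA than in total RNA (log2 -8.17 against -6.06), a difference of -2.18 with an edgeR adjusted p of 0.018. CTSZ rose further in polysome RNA (log2 6.76 against 4.18), a difference of 2.54 with an edgeR adjusted p of 0.000454. HSBP1L1 showed the widest gap of the 6 (log2 6.97 against 2.20), a difference of 4.75 with an edgeR adjusted p of 6.08e-06. LCP1 fell less in polysome RNA than in total RNA (log2 -4.95 against -6.49), a difference of 1.48 with an edgeR adjusted p of 0.00349. PLTP likewise fell less in polysome RNA (log2 -3.57 against -4.73), a difference of 1.11 with an edgeR adjusted p of 0.0139. ST8SIA6-AS1, with 0 counts in 2 of 3 shCtrl polysome libraries, rose further in polysome RNA (log2 8.76 against 5.76), a difference of 2.99 with an edgeR adjusted p of 0.0194. The other 14 did not pass this test, which does not show that their changes were equal.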

How the results depend on the processing

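The number of genes higher and lower kept within 1.5 times of the values reported under every alternative: another normalization, other filters, DESeq2 (2756 higher, 2618 lower), the length trend removed (2498 and 2322), no minimum log2 change (2612 and 2871), the fit of all 12 libraries (3335 and 3894), and each library left out. No called gene was called in the opposite direction in any of 15 alternatives. Of 167 called genes picked for naming, 147 kept their call with the length trend removed and 163 with the replicate block. The samples share replicate numbers between lines, but the deviations of same-numbered polysome libraries correlated at -0.00876, 0.0893 and -0.0413, and shCtrl replicate 1 correlated best with shPRRC2B replicate 3 (0.109), so the numbers were not taken to pair the samples. With the replicate block 2473 genes were higher and 2704 lower. Under the replicate block with the length trend removed, PRRC2B had a log2 change of -0.75 and did not pass. With at least 10 counts in every library, 1 of the 20 genes with the largest polysome changes was past the test of the difference between polysome and total RNA, against 6, since 5 of those 6 were not tested under that filter.

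List medians that moved by more than the spread between replicates are given here, and the cause was not tested. After removal of the length trend, the median was -0.37 for cytosolic ribosomal proteins, 0.15 for mitochondrial ribosomal proteins, 0.026 for mitochondrial import, -0.23 for mRNA decay and CCR4-NOT, -0.24 for HSP70, HSP90 and HSP110 chaperones, -0.12 for ubiquitin-specific proteases, -0.063 for VPS endosomal sorting, -0.015 for solute carriers, 0.018 for kinesin and dynein motors, 0.15 for actins and tubulins, -0.36 for mitotic cyclins, kinases and checkpoint, -0.20 for cohesin and condensin, -0.50 for large chromatin regulators, -0.21 for C2H2 zinc finger genes named ZNF, 0.38 for LINC-named RNAs, 0.24 for antisense-named RNAs, 0.13 for snoRNA host genes and -0.75 for HEK293T markers. Under the replicate block with the length trend removed, the median was -0.36 for cytosolic ribosomal proteins, 0.051 for mitochondrial import, -0.23 for mRNA decay and CCR4-NOT, -0.24 for HSP70, HSP90 and HSP110 chaperones, -0.056 for ubiquitin-specific proteases, -0.054 for VPS endosomal sorting, -0.014 for solute carriers, 0.11 for kinesin and dynein motors, 0.16 for actins and tubulins, -0.35 for mitotic cyclins, kinases and checkpoint, -0.20 for cohesin and condensin, -0.50 for large chromatin regulators, -0.21 for C2H2 zinc finger genes named ZNF and -0.75 for HEK293T markers. With DESeq2, the median was 0.037 for RAB small GTPases, 0.0063 for solute carriers, -0.081 for G1 cyclins, CDK4/6 and CDK inhibitors and 0.81 for LINC-named RNAs. In the fit of all 12 libraries, the median was -0.098 for G1 cyclins, CDK4/6 and CDK inhibitors. With no filter on low counts, the median was 0.023 for RAB small GTPases, -0.032 for solute carriers, -0.096 for G1 cyclins, CDK4/6 and CDK inhibitors and 1.03 for LINC-named RNAs. With at least 10 counts in every library, the median was 0.36 for LINC-named RNAs. With each library left out in turn, the medians ran from -0.26 to 0.031 for other initiation factors, -0.52 to -0.30 for HSP70, HSP90 and HSP110 chaperones, -0.45 to -0.27 for ubiquitin-specific proteases, -0.26 to -0.15 for VPS endosomal sorting, -0.24 to -0.055 for G1 cyclins, CDK4/6 and CDK inhibitors, -0.33 to -0.19 for mitotic cyclins, kinases and checkpoint, 0.17 to 0.39 for HOX cluster genes and 0.37 to 0.58 for LINC-named RNAs.

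The direction of genes that were not called, with values near 0, changed with the setting. After removal of the length trend, the log2 change was -0.16 for ATF4, -0.24 for CDKN2A, 0.36 for COL1A1, 0.041 for CTC1, 0.011 for EEF1A1, 0.20 for FMR1, 0.27 for RPL27A and -0.062 for RPS15. Under the replicate block with the length trend removed, the log2 change was -0.21 for ATF4, -0.23 for CDKN2A, 0.37 for COL1A1, 0.15 for CTC1, 0.20 for FMR1, 0.26 for RPL27A and -0.059 for RPS15. With the replicate block, the log2 change was -0.0067 for BRWD1. With DESeq2, the log2 change was 0.014 for BIRC5, 0.013 for COL1A1, 0.019 for RPL27A and 0.0032 for SRP9. With RLE size factors, the log2 change was 0.018 for BIRC5, 0.016 for COL1A1, 0.023 for RPL27A and 0.0072 for SRP9. With library totals, the log2 change was -0.0063 for BRWD1. With no filter on low counts, the log2 change was 0.0042 for RPL27A. With at least 10 counts in every library, the log2 change was 0.016 for BIRC5, 0.011 for COL1A1, 0.022 for RPL27A and 0.0040 for SRP9. With each library left out in turn, the log2 changes ran from -0.085 to 0.40 for ATF4, -0.068 to 0.032 for BIRC5, -0.17 to 0.16 for BRWD1, -0.030 to 0.22 for CDKN2A, -0.17 to 0.15 for COL1A1, -0.17 to 0.19 for COX7C, -0.82 to 0.098 for CTC1, -0.29 to 0.094 for EEF1A1, -0.13 to 0.0060 for FMR1, -0.10 to 0.81 for MT-CO1, -0.092 to 0.081 for RPL27A, -0.049 to 0.18 for RPL37A and -0.11 to 0.045 for SRP9. Of the blood, liver and fibroblast markers 1 of 7, 2 of 5 and 3 of 7 had enough counts to be tested.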
